A study of Rattus norvegicus with 4 samples.

Results

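The distal convoluted tubule and the connecting tubule join the loop of Henle to the collecting duct, and 509 of the 10383 deposited spots of 4 rat kidney sections were taken as spots rich in their RNA. Gene expression was measured with 10x Visium, an array of barcoded spots that captures RNA from the tissue lying on it, so the RNA of a spot can come from several neighbouring cells of unlike type. In each section, spots with at least 3000 UMIs (unique molecular identifiers, each 1 captured RNA molecule) were ranked by the UMIs of Slc12a3, Calb1 and Trpv5 per UMI of the spot, and the members were chosen by that share, as the top 5%. This gave 143 of 2863 ranked spots in the healthy section, 127 of 2551 in the healthy_LS-FMD section, 130 of 2607 in the PAN section and 109 of 2180 in the PAN_LS-FMD section. These 3 selecting genes were left out of every level given for other genes.

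Kidneys of Sprague-Dawley rats had been frozen and cut at 10 µm, with 1 section per group, and the labels gave neither the age nor the sex of the animals. The group PAN had been injected with puromycin aminonucleoside, a podocyte toxin that produces nephrotic kidney disease in rats, ate ad libitum and was examined 5 months after the injection. The injected group PAN_LS-FMD then went through 6 cycles of LS-FMD, a fasting-mimicking diet low in salt, and was likewise examined 5 months after injection, 6 weeks after treatment. The group healthy was untreated, and the group healthy_LS-FMD was an uninjected rat examined 72 h into refeeding after 1 cycle of the diet, so the 2 diet groups differed in number of cycles and in time after the diet. With 1 section per group there was no replicate and no test. Every interval in brackets is a 95% interval of counting error only, and each difference is one between these sections, not between the conditions.

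Cells of the distal convoluted tubule reabsorb sodium chloride through the thiazide-sensitive cotransporter NCC, the product of Slc12a3, which the WNK kinases and the kinase SPAK switch on. The connecting tubule reabsorbs calcium through the channel TRPV5 and the calcium buffer calbindin-D28k (Calb1), and sodium through the channel ENaC under the control of aldosterone. Intercalated cells, which secrete acid or bicarbonate, lie among the cells of the connecting tubule and collecting duct. Tissue kallikrein, a serine protease released into the urine, is a product of the connecting tubule.

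The selecting genes describe how the members were chosen and support nothing else. Values given for the 4 sections run in the order healthy, healthy_LS-FMD, PAN and PAN_LS-FMD throughout. Slc12a3 stood at 2189.9, 5379, 1225 and 3572 CPM in the members (CPM, UMIs of the gene per 1000000 UMIs), Calb1 at 1232, 2161, 449.6 and 805 CPM and Trpv5 at 23.5, 20.9, 47.9 and 14.8 CPM. The members held 39.7, 43.1, 54.8 and 35.0% of the Slc12a3 UMIs of the ranked spots. The last member and the first spot left out had scores of 1737 and 1734 CPM in the healthy section, 4553 and 4546 in the healthy_LS-FMD section, 646.0 and 645.7 in the PAN section and 2771 and 2754 in the PAN_LS-FMD section. The last PAN member had only 2 selecting UMIs, while the last members of the other sections had 46, 44 and 34. At the score of the last healthy member there were 143, 463, 40 and 229 spots, or 4.99, 18.2, 1.53 and 10.5% of the ranked spots, with summed Slc12a3 levels of 2190, 2948, 2340.1 and 2551 CPM and median depths of 18655, 6668, 10016 and 12723 UMIs. By the summed score the PAN members were thus the poorest and the healthy_LS-FMD members the richest, while Trpv5 alone was highest in the PAN members. Distal gene counts are therefore also given for the spots at or above that 1 score, called the common score, a choice made after the data were seen.

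**Figure D1:**
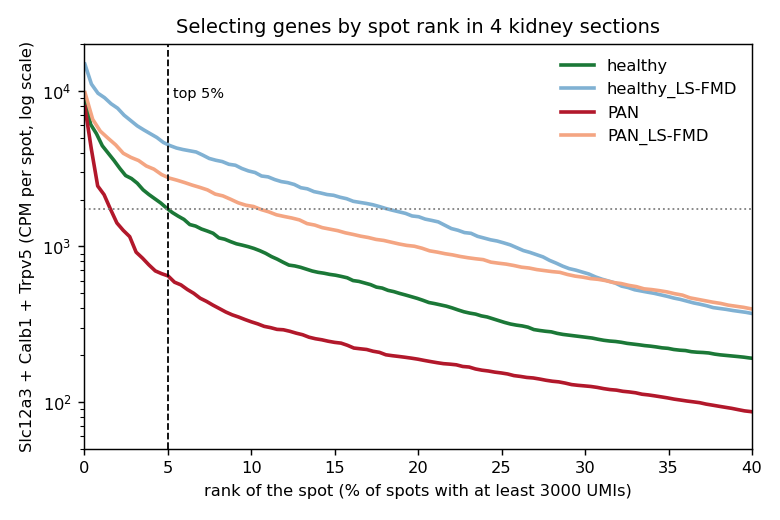
Selecting genes against spot rank. The x axis is the rank of a spot as a percentage of the spots with at least 3000 UMIs in its section, the y axis the CPM of Slc12a3, Calb1 and Trpv5 together on a log scale, and each line is 1 section. The dashed line marks the top 5% and the dotted line the score of the last healthy member, which 40 spots of the PAN section and 463 of the healthy_LS-FMD section reached.

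The members held 2728384, 1195087, 1399056 and 1558122 UMIs, with medians of 18655, 8286, 10086 and 14354 UMIs per spot, and medians of 19586, 8965, 8617 and 15020 UMIs in the other ranked spots. None of the members was among the spots ranked in the top 5% for the thick ascending limb genes Umod, Slc12a1 and Cldn16. Of those ranked for the collecting duct genes Aqp2, Aqp3 and Fxyd4, 10, 1, 9 and 6 were also members. The sections shared between 1650 and 2279 spot barcodes in pairs, and the members between 0 and 7. The count matrix of the healthy section came from another version of Space Ranger than the other 3, and its part in the comparisons with that section was not tested. Blood RNA set the healthy section apart: 4 red blood cell genes summed to 1373, 180, 324 and 308 CPM in the members and 3371, 594, 380 and 441 CPM in the other spots. All 4 were lower in the members of each other section than in the healthy ones, with median log2 folds of -3.53, -2.21 and -2.34, and their part in the comparisons with healthy was not tested.

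Beyond the selecting genes, RNA of kallikrein and of several connecting tubule and intercalated cell genes was higher in the members than in the remaining spots. The rule chose the members in this contrast, so their levels against the other spots are a description. Over all genes measured, 9.27% were at least 1.5-fold higher in the healthy members than in the other spots with an interval clear of 1, and 6.69% were lower by the same rule. These shares were 6.75 and 10.5% in the healthy_LS-FMD section, 3.13 and 4.48% in the PAN section and 10.9 and 5.84% in the PAN_LS-FMD section. Of the distal genes listed, which cover transport, NCC control, calcium, ENaC and water channels, transcription factors, claudins and intercalated cells, 39 of 61 measured were higher and 3 lower in the healthy section. The counts were 29 and 6 of 59, 28 and 5 of 60, and 34 and 3 of 59 in the other sections.

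Klk1c9, a member of the kallikrein family, had the highest level of the 20 genes that led the members. It stood at 18938, 16811, 2507 and 13020 CPM, 15.7, 11.1, 18.2 and 7.52-fold above the other spots. The members held 43.3, 35.4, 52.1 and 25.9% of its UMIs in the ranked spots, although they were 5% of those spots. Spot by spot, the lowest, median and highest levels were 513, 10582 and 98292 CPM in the healthy section and 0, 1068 and 21414 CPM in the PAN section. The PAN spots lay low, but the ranges overlapped. Kallikrein genes are close copies of one another, so reads of one may have been counted for another.

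Fetub, which encodes the protease inhibitor fetuin-B, stood at 177, 180.4, 127 and 119.9 CPM, 15.7, 10.0, 13.7 and 7.73-fold above the other spots. Tmem52b, which encodes a membrane protein, stood at 727, 1238, 458 and 787 CPM, and its ratios were 8.38, 8.83, 6.21 and 6.86-fold. Both were high in the members of each section, whatever the level. Defb1, which encodes the antimicrobial peptide beta-defensin 1, stood at 4225, 7441, 1587 and 3252 CPM, and Dnase1, which encodes a secreted DNase, at 1402, 4662, 507 and 3999 CPM. Their ratios to the other spots were 5.02, 5.96, 4.78 and 4.19-fold and 6.20, 4.10, 5.21 and 6.34-fold. Both genes were lowest in the PAN members.

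The steroid enzyme gene Hsd11b2, whose product keeps cortisol-like steroids off the aldosterone receptor, stood at 1149, 1391, 816 and 899.9 CPM, 5.43, 3.30, 6.00 and 3.35-fold above the other spots. The ENaC subunit genes Scnn1b and Scnn1a were 5.76, 3.98, 5.57 and 3.41-fold and 4.81, 4.85, 2.94 and 4.57-fold above them. Bsnd, which encodes the chloride channel subunit barttin, was 4.30, 3.95, 3.16 and 3.97-fold above, and the proton pump subunit gene Atp6v1b1 was 3.84, 3.24, 3.29 and 3.55-fold above. The other leading genes were Tgm3 (a transglutaminase), Tmem52, Degs2 (a sphingolipid enzyme), Tox3 (a DNA-binding protein), A4galt (a glycosyltransferase), Kcnq1 (a potassium channel), Dapl1, Slc25a43 (a mitochondrial carrier), Ctsc (cathepsin C) and Coch (cochlin). Several of these were sparse: A4galt had no UMI in 64, 60, 77 and 47 of the member spots.

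**Figure D2:**
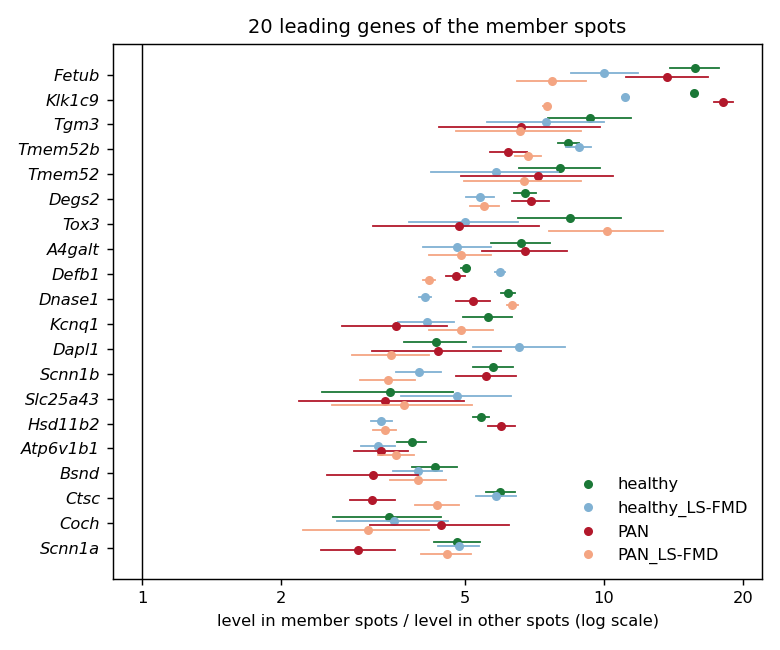
The 20 leading genes of the member spots. The x axis is the level in the member spots divided by that in the other ranked spots of the same section on a log scale, points are the 4 sections and bars are 95% intervals of counting error. All points lie to the right of 1, and those of Klk1c9 run from 7.52 to 18.2.

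Some textbook markers of the distal convoluted tubule gave no signal here. Pvalb (parvalbumin), Kcnj10 and Kcna1 (potassium channels) and Nr3c2 (the aldosterone receptor) had 0 UMIs in the members of all 4 sections, where 3 counts, the limit that a count of 0 allows, correspond to between 1.10 and 2.53 CPM. The magnesium channel gene Trpm6 had 0, 0, 1 and 1 UMIs and Klhl3, part of the ubiquitin ligase that removes WNK kinases, had 0, 1, 0 and 2 UMIs. These genes were also at or near 0 in the other spots, so they do not separate the members from them. The label of the members comes from the selecting genes. The leading genes above were picked in the contrast that the rule made, so they describe the members and do not test the label. Egf and Klk1 had no matching symbol and were not analysed here.

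Other cell types lay in the same spots. The 10 intercalated cell genes summed to 3070, 3773, 2147 and 2245 CPM in the members and 1455, 2421, 1162 and 1336 CPM in the other spots. Thick ascending limb genes summed to 4185, 4106, 1910 and 5989 CPM in the members and 8464, 9385, 6308 and 8553 CPM elsewhere, and the marker Umod (uromodulin) alone stood at 3719, 3380.1, 1617 and 5531 CPM in the members. Proximal tubule S3 genes summed to 6370, 4640, 395 and 6791 CPM in the members and 22069, 17287, 2585 and 22559 CPM elsewhere, whereas genes of the proximal S1 and S2 segments, 10107, 5256, 7228 and 10202 CPM, were close to the other spots at 9825, 6567, 6553 and 10525 CPM. Podocyte genes summed to 346, 349, 132 and 357 CPM in the members and 184, 233, 98.4 and 295 CPM elsewhere. The members were thus mixed spots, richer in intercalated cell RNA and poorer in RNA of the loop and of S3 than the remaining spots. In such bulk spots, fewer cells of a type and less RNA per cell cannot be told apart.

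Against the thick ascending limb and collecting duct spots, the kinase gene Wnk1 set the members apart in each section. Leaving out spots in both sets, its level in the members was 4.37, 6.29, 1.98 and 4.38-fold that of the thick ascending limb spots and 6.71, 8.31, 2.43 and 5.05-fold that of the collecting duct spots. Klk1c9 was 33.3, 26.7, 63.2 and 23.6-fold and 12.0, 20.6, 30.1 and 6.84-fold the levels there. Emx1, a transcription factor gene, was 3.09, 4.56, 4.38 and 3.36-fold and 2.82, 8.98, 4.16 and 2.31-fold, and Vdr, the vitamin D receptor gene, 3.06, 4.09, 2.61 and 3.01-fold and 2.38, 3.47, 2.20 and 2.36-fold. All of these ratios were above 1, with the Wnk1 ratios lowest in the PAN section. The steroid enzyme gene Hsd11b2 and the ENaC gene Scnn1b lay near the level of the collecting duct spots. Hsd11b2 was 1.05, 0.835, 0.912 and 0.833-fold and Scnn1b 1.07, 1.24, 0.762 and 0.747-fold that level. Scnn1g, the gene of the gamma subunit of ENaC, lay below it, at 0.507, 0.592, 0.273 and 0.338-fold. Ppp1r1a, which encodes inhibitor 1 of a protein phosphatase, was 0.372, 0.491, 0.0955 and 0.761-fold the level of the thick ascending limb spots, below it in each section.

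The members were not uniform in their share of Slc12a3. Among the selecting UMIs of a member, the share of Slc12a3 had a median of 71.8, 86.4, 83.3 and 90.9% and reached 100% in each section, with the lowest shares at 5.33, 3.39, 0 and 6.25%. Across member spots, the CPM of Slc12a3 and of Calb1 had Pearson correlations of -0.40 (n = 143), -0.64 (n = 127), -0.10 (n = 130) and -0.58 (n = 109), where the rule on their sum acts on the value and spots share a library and its depth. Slc12a3 gave over 50% of the selecting UMIs in 95, 102, 99 and 93 members. Members were divided at the median share into high-Slc12a3 and low-Slc12a3 spots, 71, 63, 65 and 54 of each, a division chosen after the data were seen, and 8, 39, 30 and 52 spots lay within 5 percentage points of the dividing value. Many low-Slc12a3 spots thus still held more Slc12a3 than Calb1 UMIs, and the names only place a spot on either side of its section's median. The division uses the selecting genes, so what follows describes other genes along it. The members held 5975, 6428, 1714 and 5565 Slc12a3 UMIs and 3361, 2583, 629 and 1254 Calb1 UMIs, fewest in the PAN section. The share of a PAN spot thus carried more counting error, and its part in the PAN ratios was not tested.

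Low-Slc12a3 members carried more kallikrein RNA, more RNA of the beta and gamma subunits of ENaC and more of 3 intercalated cell genes described here. Klk1c9 stood at 4652 against 31819 CPM in the healthy section (high-Slc12a3 against low-Slc12a3), 4013 against 28389 CPM in the healthy_LS-FMD section, 1507 against 3471 CPM in the PAN section and 2874 against 23338 CPM in the PAN_LS-FMD section. It was higher on the low-Slc12a3 side in each section, least so in the PAN section, where the division rested on the fewest selecting UMIs. Scnn1g was 8.86, 4.70, 4.99 and 3.49-fold higher on the low-Slc12a3 side, Scnn1b 3.20, 3.35, 1.72 and 4.45-fold and Hsd11b2 4.15, 4.08, 2.38 and 3.30-fold. By contrast, Scnn1a, the alpha subunit of ENaC, differed by less than 1.5-fold between the sides in all 4 sections. Aqp2, the water channel gene of principal cells, was 3.64, 1.86, 4.28 and 2.29-fold higher on the low-Slc12a3 side. Among intercalated cell genes, Slc26a4 (pendrin, a chloride and bicarbonate exchanger) was 3.79, 2.54, 2.57 and 2.45-fold, Slc4a1 (the anion exchanger AE1) 3.65, 2.61, 2.32 and 2.67-fold and Rhbg (an ammonia channel) 4.10, 3.11, 3.82 and 3.13-fold higher there.

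High-Slc12a3 members carried more RNA of the phosphatase inhibitor and of the loop. Ppp1r1a was 2.92, 2.69, 2.41 and 2.12-fold higher on the high-Slc12a3 side, and stood at 1202 against 412 CPM in the healthy section. Gp2, which encodes a glycoprotein related to uromodulin, was 11.8, 3.35, 3.11 and 2.17-fold higher, and Acsm3, an acyl-CoA synthetase gene, 3.14, 2.41, 2.55 and 2.42-fold. Fxyd6, a regulator of the sodium pump, was 3.93, 3.63, 2.58 and 2.55-fold higher. Umod itself was 1.74, 1.49, 1.47 and 1.30-fold higher and Cldn16, a claudin gene of the thick ascending limb, 2.52, 1.72, 2.02 and 2.01-fold, so loop RNA was on the same side. Wnk1 was 1.57, 1.27, 1.03 and 1.43-fold and Stk39 (SPAK) 1.82, 1.64, 0.908 and 1.43-fold higher on that side. Neither was apart in the PAN section, where the division rested on the fewest selecting UMIs.

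**Figure D3:**
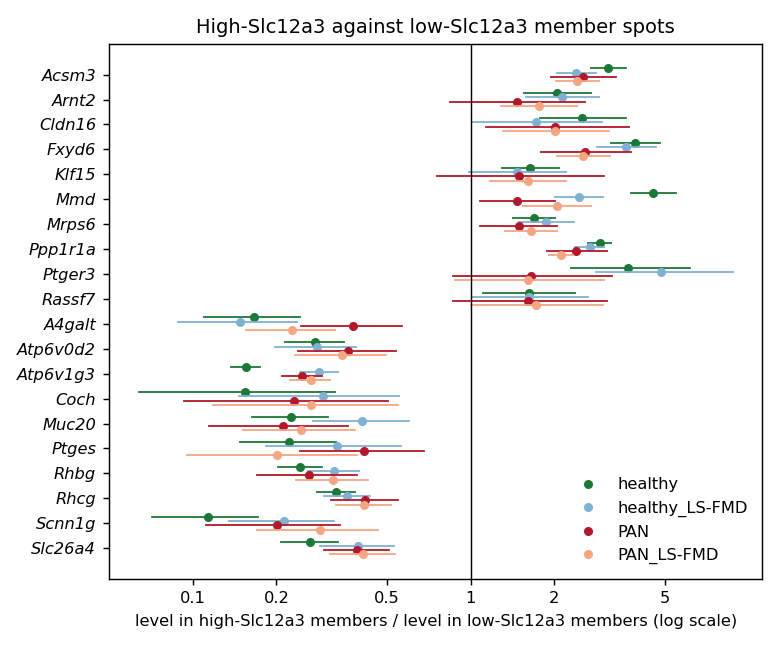
High-Slc12a3 against low-Slc12a3 member spots. The x axis is the ratio of levels on a log scale, the rows are the 10 genes on either side with the largest least ratio over the 4 sections, among genes with at least 30 UMIs in the members of each section, points are sections and bars are 95% intervals of counting error. Rhbg and Scnn1g lie on the low-Slc12a3 side in every section, and Ppp1r1a and Acsm3 on the high-Slc12a3 side.

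The first comparison, PAN against healthy, asks what distinguished distal tubule spots months after the podocyte toxin. In the PAN members, genes of injury, matrix and immune cells were many times higher, and the kallikrein gene Klk1c9, the phosphatase inhibitor gene Ppp1r1a and 6 of 10 intercalated cell genes were lower. By the 1.5-fold rule, 2605 of 9256 genes measured were higher (28.1%) and 776 lower (8.38%), with a median log2 fold of 0.30 over all genes. Scaling by the median of ratios brought that median to 0.13 and the share of higher genes among those past the rule from 77.0 to 63.0%. Of 54 distal genes, 4 were higher and 19 lower, a lower share high and a larger share low than among all genes. Their median log2 fold was -0.48, and the medians of their lower and upper bounds were -0.74 and -0.13. In the other spots 11 were higher and 12 lower of 62, with a median of -0.14. In the spots at or above the healthy score, 4 were higher and 7 lower of 53, with a median of -0.13, where 21.7% of all genes measured were higher and 6.78% lower.

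Of 7 measured genes of sodium chloride and magnesium transport, 3 were lower in the PAN members and none at the common score. The barttin gene Bsnd stood at 137, 271, 68.0 and 157 CPM and was 2.02-fold lower (1.61 to 2.55) in the PAN than in the healthy members. Fxyd2, the sodium pump regulator gene, stood at 1039, 1932, 499.8 and 904 CPM and was 2.08-fold lower (1.91 to 2.26). Both were lowest in the PAN members. At the common score they were 1.27-fold lower (0.939 to 1.75) and 1.22-fold lower (1.09 to 1.36), neither of them past the rule. In the same spots 3 of 5 thick ascending limb genes were lower, with a median log2 fold of -0.67 in the members and 0.01 in the other spots, and 4 of 4 S3 genes measured were lower, with medians of -3.82 and -2.51.

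Among the 10 measured regulators of NCC, Wnk1, Stk39, Sgk1 and Ppp1r1a were lower in the PAN members and Oxsr1 higher. Wnk1 stood at 1061, 1864, 590.0 and 1399.5 CPM, with the lowest, median and highest spot at 147, 928 and 3001 CPM in the healthy section and 0, 449.8 and 2309.5 CPM in the PAN section. It was 1.80-fold lower (1.66 to 1.95) in the members and 1.24-fold higher in the other spots, a difference of -1.16 (-1.28 to -1.04) on the log2 scale. At the common score it was 1.08-fold lower (0.976 to 1.197), so the difference in Wnk1 was within counting error among spots at or above the same score. Stk39 stood at 79.4, 189.7, 43.0 and 117 CPM, was 1.85-fold lower (1.38 to 2.50), and at that score 1.41-fold lower (0.932 to 2.23).

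Ppp1r1a and Sgk1 stayed past the rule at the common score. Of 5 thick ascending limb genes, 3 were lower there too, with a median log2 fold of -0.84. Their part in the Ppp1r1a value was not tested. Ppp1r1a, whose product shields phosphorylated NCC from a phosphatase, stood at 783, 1135, 223 and 1206 CPM. The lowest, median and highest spots were 60.02, 647 and 3499 CPM in the healthy section and 0, 136 and 1880.4 CPM in the PAN section, where 0, 0, 26 and 0 members by section had no UMI. It was 3.51-fold lower (3.11 to 3.96) in the members, 1.44-fold lower in the other spots and 2.28-fold lower (1.93 to 2.70) at the common score. Sgk1, an aldosterone-induced kinase gene, stood at 587, 261, 372 and 581 CPM and was 1.58-fold lower (1.43 to 1.74), and 1.88-fold lower (1.58 to 2.25) at that score. Wnk4, the other WNK kinase gene of this segment, stood at 136, 314, 145 and 226 CPM and differed by less than 1.5-fold.

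The calcium and vitamin D genes did not move together. Cyp24a1, which encodes the enzyme that inactivates vitamin D, stood at 26.5, 19.4, 167 and 52.9 CPM and was 6.30-fold higher (4.82 to 8.32) in the PAN members, 5.08-fold higher in the other spots and 4.84-fold higher (3.36 to 6.95) at the common score. Pth1r, the parathyroid hormone receptor gene, stood at 614, 577, 408 and 663 CPM and was 1.504-fold lower (1.37 to 1.66). S100g, the gene of calbindin-D9k, stood at 15.1, 2.53, 5.73 and 18.7 CPM and was 2.63-fold lower (1.22 to 6.50). Vdr stood at 256, 389.5, 245 and 329 CPM and was 1.05-fold lower, not past the rule. The list thus held 1 gene higher and 2 lower of 5 measured.

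Kallikrein and Gp2 were among the genes furthest down. Klk1c9 was 7.55-fold lower (7.30 to 7.82) in the PAN members, 8.73-fold lower in the other spots and 4.48-fold lower (4.28 to 4.69) at the common score, so it was low in the section as a whole. Klk1c3, a further kallikrein copy, had 458, 150, 1 and 59 UMIs and was 235-fold lower (42.0 to 9312). Gp2 had 855, 1441, 24 and 335 UMIs and stood at 314, 1215, 17.2 and 216 CPM. It was 18.3-fold lower (12.2 to 28.7) in the PAN members against 2.23-fold lower in the other spots, and 14.0-fold lower (7.57 to 29.3) at the common score. The part of thick ascending limb RNA in these Gp2 values was not tested. The remaining genes of the 10 furthest down were Kap, Slc7a13 and Slco1a6 of the S3 segment, Cyp2d5, Rgn and Tff3, between 8.09-fold lower and 17.5-fold lower, and Fam111a, 20.9-fold lower (6.98 to 102.7) from 3 against 122 UMIs.

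ENaC genes did not pass the rule in this comparison. Scnn1a stood at 139, 411, 101 and 199 CPM, Scnn1b at 189, 325, 168 and 157 CPM and Scnn1g at 96.4, 144, 75.2 and 63.2 CPM. Aqp3, Kcnj1 (the potassium channel ROMK) and Fxyd4 were 1.98-fold lower, 2.18-fold lower and 2.20-fold lower. They were the 3 lower of 9 measured genes of ENaC, water and potassium channels, of which 2 were lower at the common score. Of 10 intercalated cell genes 6 were lower, among them Rhbg, 2.74-fold lower (2.30 to 3.27), Slc4a1, 2.15-fold lower (1.75 to 2.65), and Rhcg, 1.88-fold lower (1.64 to 2.17). Slc26a4, the marker of bicarbonate-secreting cells, stood at 177, 197, 205 and 175 CPM, nearly level over the sections. At the common score Rhbg was 2.68-fold lower (2.02 to 3.64), the only intercalated cell gene past the rule there. Of 4 claudin genes, which encode proteins of the tight junction, Cldn4 and Cldn7 were higher, 2.75-fold higher (2.01 to 3.79) and 1.76-fold higher (1.25 to 2.49). Cldn3 was lower, 1.63-fold lower (1.10 to 2.50), and Cldn8 did not pass the rule. At the common score 2 of the 4 claudin genes were higher and 0 lower. None of 9 measured transcription factor genes, such as Emx1 at 106, 237, 74.5 and 139 CPM, passed the rule.

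**Figure D4:**
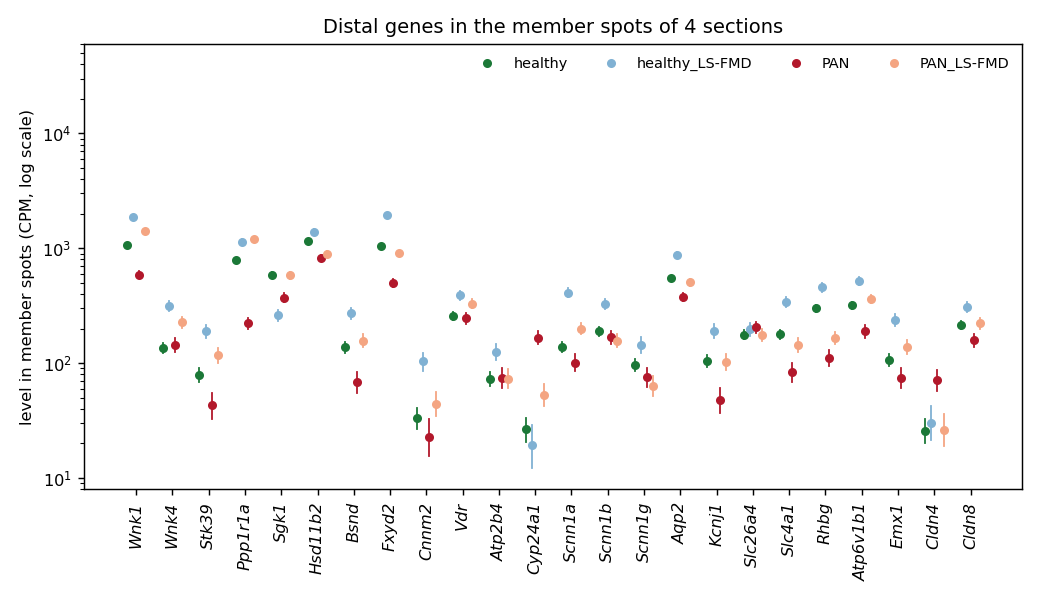
Distal genes in the member spots. The y axis is the level in CPM on a log scale, points are the summed members of each section and bars are 95% intervals of counting error. Wnk1, Ppp1r1a and Bsnd are lowest in the PAN section, Cyp24a1 and Cldn4 highest there, and Slc26a4 lies between 175 and 205 CPM in all 4.

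Injury, matrix and immune genes were high in the PAN members as in the rest of that section. Spp1, which encodes osteopontin, a phosphoprotein made by damaged tubules, stood at 261, 552, 14097 and 433 CPM. The lowest, median and highest PAN spots were 6155, 13539 and 32987 CPM, and the healthy spots 0, 227 and 1548 CPM, so the spots did not overlap. It was 54.1-fold higher (50.2 to 58.4) in the members and 51.7-fold higher in the other spots. Havcr1, the gene of the proximal tubule injury receptor KIM-1, was 37.8-fold higher and Lcn2 (a secreted iron-binding protein) 17.2-fold higher. Of the injury genes 14 of 16 were higher, of matrix genes 10 of 10, of macrophage genes 11 of 11 and of interferon response genes 8 of 9. The matrix genes summed to 1095, 718, 7355 and 1036 CPM and the macrophage genes to 1505, 1433, 8772 and 1978 CPM. Genes furthest up beside Spp1 and Havcr1 included the immunoglobulin genes Igkc and Ighm, the chemokine gene Ccl21, Ltbp2, the mast cell protease gene Mcpt1 and Cyp1b1, from 33.0-fold higher to 84.1-fold higher. In the same spots RNA of injury, matrix and immune genes was thus higher and that of S3 genes lower. The part of either in the distal differences was not tested.

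Of 14 genes of oxidative phosphorylation 10 were lower in the PAN members, with a median log2 fold of -0.66, and -0.65 in the other spots. Only 5 of the 14 were lower at the common score, with a median of -0.51. Ndufa4, a subunit of the respiratory chain, was at 2077 against 4240.2 CPM, 2.04-fold lower (1.96 to 2.13). Podocyte genes were lower in 5 of 6 cases.

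A few genes differed in the PAN members in another way than in the other spots. Mmd was 2.13-fold lower in the members and 2.30-fold higher in the other spots, and Guca2a, the gene of the peptide guanylin, 1.77-fold lower and 2.61-fold higher. Igfbp1, a binding protein of insulin-like growth factors, was 1.18-fold higher in the members against 4.48-fold higher elsewhere. Kng1l1, a kininogen gene, was 1.22-fold higher against 10.7-fold higher. Acsm3 was 1.85-fold lower against 6.01-fold lower, and the chemokine gene Cxcl10 6.23-fold higher against 1.53-fold higher. Ggh was 1.48-fold lower against 3.24-fold lower, and Gstp1 1.26-fold higher against 1.58-fold lower. Igkc and Gp2, given above, completed the 10 genes that lay furthest from the other spots.

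**Figure D5:**
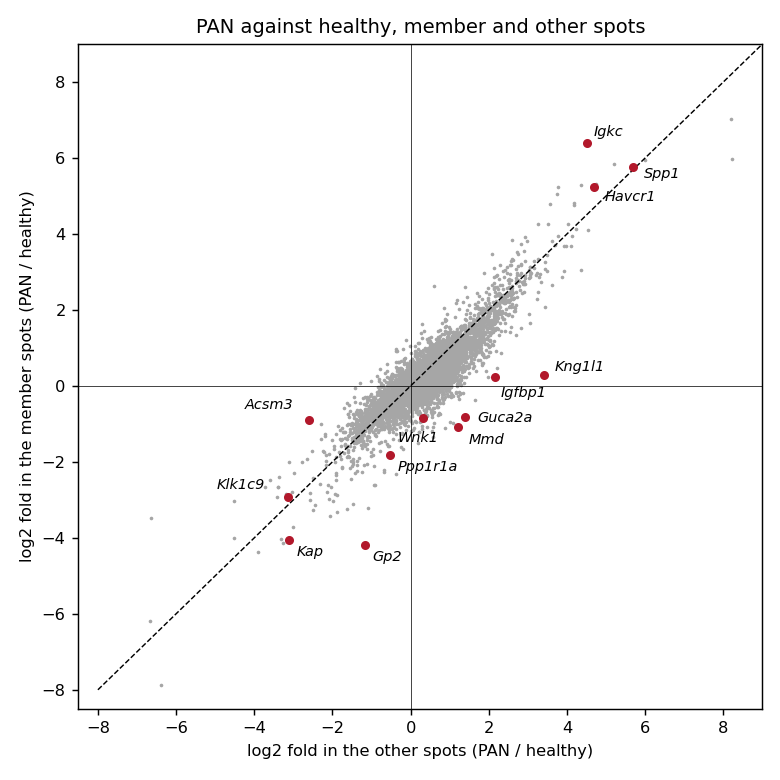
PAN against healthy in member and other spots. Each point is a gene with at least 60 UMIs in the members of both sections together and at least 20 in the other spots, the x axis is its log2 fold in the other spots and the y axis that in the members. Most genes follow the dashed line of equal folds, Spp1 at 54.1-fold and 51.7-fold among them, while Gp2, Mmd, Guca2a, Ppp1r1a, Igfbp1 and Kng1l1 lie below it and Acsm3 and Igkc above.

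The second comparison, PAN_LS-FMD against PAN, asks what set the section with diet cycles apart from the one without. In the PAN_LS-FMD members, injury, matrix and immune genes were many times lower and S3, podocyte and several distal genes higher. By the rule 809 of 8901 genes were higher (9.09%) and 1591 lower (17.9%), with a median log2 fold of -0.13. Of 53 distal genes 17 were higher and 3 lower, with a median of 0.42, and in the spots at or above the healthy score 8 were higher and 7 lower of 54, with a median of 0.01, against 7.63 and 14.9% of all genes. The share of lower distal genes at that score was thus close to that of all genes. In the other spots 17 were higher and 8 lower of 61, with a median of 0.26. This comparison shares the PAN section with the first, so values that are extreme in that section appear in both.

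The NCC regulators were higher in 5 of 10 cases. Ppp1r1a was 5.40-fold higher (4.79 to 6.11), 1.22-fold higher in the other spots and 2.62-fold higher (2.22 to 3.10) at the common score. Of 5 thick ascending limb genes, 3 were higher and 1 lower at that score, with a median log2 fold of 0.83. Their part in the Ppp1r1a value was not tested. Wnk1 was 2.37-fold higher (2.19 to 2.57) in the members and 1.12-fold higher (1.01 to 1.24) at that score, below the rule. Stk39 was 2.72-fold higher (2.02 to 3.70) and 1.53-fold higher (1.01 to 2.40) there, Sgk1 1.56-fold higher (1.40 to 1.74) and 1.94-fold higher (1.63 to 2.32), and Wnk4 1.56-fold higher (1.31 to 1.87) and 1.02-fold higher (0.806 to 1.29). In sodium chloride and magnesium transport, Bsnd was 2.31-fold higher, Fxyd2 1.81-fold higher and the magnesium handling gene Cnnm2 1.94-fold higher, and none passed the rule at the common score. Among calcium genes Pth1r was 1.63-fold higher and S100g 3.26-fold higher, and both stayed past the rule at that score, while Cyp24a1 was 3.16-fold lower (2.44 to 4.11).

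The ENaC subunits did not go together. Scnn1a was 1.97-fold higher (1.61 to 2.43), whereas Scnn1b, 1.07-fold lower, and Scnn1g, 1.19-fold lower, did not pass the rule. At the common score Scnn1a was 1.16-fold lower (0.909 to 1.46), Scnn1b 1.62-fold lower (1.31 to 1.98) and Scnn1g 1.77-fold lower (1.30 to 2.37). Kcnj1 was 2.15-fold higher and Fxyd4 2.94-fold higher. Of 10 intercalated cell genes, Slc4a1, 1.74-fold higher, and Atp6v1b1, 1.91-fold higher, were higher. The junction genes Cldn4 and Cldn7 were 2.68-fold lower (1.85 to 3.96) and 2.07-fold lower (1.36 to 3.19). Klk1c9 was 5.19-fold higher (5.01 to 5.38), less than in the other spots, where it was 12.5-fold higher, and Gp2 was 12.6-fold higher (8.30 to 19.9) against 1.80-fold higher.

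Sat1, the gene of an enzyme of polyamine breakdown, stood at 1201, 1479.7, 421 and 1330.5 CPM in the members, lowest in the PAN section, and was 4.04, 4.02, 1.24 and 5.60-fold above the other spots. It was 3.16-fold higher (2.88 to 3.47) in the PAN_LS-FMD members and 1.43-fold lower in the other spots, and 1.52-fold higher (1.35 to 1.73) at the common score. The other genes that lay above the remaining spots were the receptor gene Fgfr2, 2.17-fold higher against 2.55-fold lower, and Kng1l1, 1.61-fold higher against 5.93-fold lower. At the common score Fgfr2 and Kng1l1 were 1.04-fold lower (0.496 to 1.96) and 1.04-fold lower (0.561 to 1.80). On the low side, Gstp1 was 1.23-fold higher against 2.38-fold higher, Ggh 1.15-fold higher against 2.44-fold higher, Stmn1 1.72-fold lower against 1.201-fold higher and the ferritin gene Ftl1 1.15-fold lower against 1.498-fold higher.

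The 10 genes furthest up in the PAN_LS-FMD members included S3 genes. Slc7a13 was 22.2-fold higher (16.8 to 29.9), Kap 16.7-fold higher (15.3 to 18.4) and Slco1a6 13.7-fold higher (9.38 to 20.6), with Slc7a12, Klk1c3, Gng13, Inmt, Tff3, Gp2 and Hnmt completing the 10. Slc7a12 was 38.3-fold higher (10.3 to 321) from 85 against 2 UMIs and Klk1c3 53.1-fold higher (9.17 to 2133) from 59 against 1 UMIs. Among those furthest down were Spp1, 32.5-fold lower (30.1 to 35.2), Havcr1, 108-fold lower (29.4 to 896) from 2 against 194 UMIs, Lcn2, 21.1-fold lower, Ccl21, Ltbp2, Igkc and Ighm. Cyp1b1 had 0 against 82 UMIs and was at least 30.4-fold lower against a floor of 3 counts over the members of the section, and Mcpt1, with 0 against 65 UMIs, at least 24.1-fold. All 10 matrix genes and all 11 macrophage genes measured were lower, 10 of 14 oxidative phosphorylation genes were higher (4 of 14 at the common score), and 5 of 6 podocyte genes were higher. Spp1 stood at 0, 276 and 4457 CPM in the lowest, median and highest PAN_LS-FMD members, all below the lowest PAN spot at 6155 CPM.

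The third comparison set PAN_LS-FMD against healthy. In the members, the median of the distal genes was near level between the 2 sections, but intercalated cell genes lay lower. Of 10 intercalated cell genes 4 were lower and 0 higher, with a median log2 fold of -0.41. In the other spots 0 of the 10 were lower, with a median of 0.03. By the rule 834 of 9001 genes were higher (9.27%) and 232 lower (2.58%), with a median log2 fold of 0.16. Scaling by the median of ratios moved the share of higher genes among those past the rule from 78.2 to 51.1%. Of 54 distal genes 4 were higher and 6 lower, a larger share low than among all genes, with a median of 0.02. In the other spots 5 were higher and 0 lower of 62, with a median of 0.11. Among spots at the common score 2 were higher and 1 lower of 56, against 9.73 and 2.81% of all genes. The 6 lower genes became 0 when the top 10% of spots were taken, 1 with ranking by Calb1 alone and 2 with ranking by Slc12a3 alone.

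The 4 higher distal genes were Wnk4, 1.66-fold higher (1.43 to 1.93), Oxsr1, 1.54-fold higher (1.07 to 2.22), Ppp1r1a, 1.54-fold higher (1.45 to 1.64), and Cyp24a1, 1.996-fold higher (1.44 to 2.78). Only Cyp24a1 of these was past the rule at the common score, 2.09-fold higher (1.58 to 2.79). The 6 lower genes were the ENaC subunit gene Scnn1g, 1.53-fold lower (1.205 to 1.94), Aqp3, 1.74-fold lower, and the intercalated cell genes Rhbg, Slc4a9, Atp6v1g3 and Atp6v0d2, from 1.56-fold lower to 2.05-fold lower. At that score Rhbg was 1.62-fold lower (1.45 to 1.80) and Scnn1g 1.31-fold lower (1.09 to 1.56). Klk1c9 was 1.45-fold lower (1.43 to 1.48) in the members and 1.44-fold higher in the other spots, Klk1c3 4.43-fold lower and 1.24-fold lower. Sfrp2, a secreted Wnt-binding protein gene, was 2.83-fold lower and 1.27-fold lower, Igfbp1 1.27-fold lower and 1.65-fold higher, and the claudin gene Cldn9 1.14-fold higher and 4.17-fold higher. Above the other spots lay Acsm3, Spp1, Scd2, Igkc and Fxyd6, with Spp1 at 1.66-fold higher in the members and 1.56-fold lower elsewhere.

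Dmrtc1c1, RT1-Bb, RT1-T24-4, P3h3, Gpx2, Tas1r1, Slc51a, Ighm and Ppic were among the genes furthest up in the PAN_LS-FMD members, and Fam111a, Tspan1, RT1-N2, Scd2, Hrg, Klk1c3, Mfsd10, Ugt2b35 and Serhl2 among those furthest down. Dmrtc1c1 had 137 against 4 UMIs and RT1-Bb, of the class II histocompatibility genes, 187 against 9 UMIs. Dmrtc1c1, RT1-Bb and RT1-T24-4 were also among those furthest up, and Hrg among those furthest down, in healthy_LS-FMD against healthy. Fam111a was also among those furthest down in PAN against healthy. These comparisons share the healthy section, so values that are extreme in that section appear in each of them. RT1 genes are close copies whose reads the counting may have divided.

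The fourth comparison, healthy_LS-FMD against healthy, asks what differed in an uninjected kidney shortly after 1 diet cycle. In the healthy_LS-FMD members 25 of 54 distal genes were higher, as were 42 of 61 in the other spots of that section, and 9 of 10 genes of the proximal S1 and S2 segments were lower. By the rule 1248 of 8867 genes were higher (14.1%) and 534 lower (6.02%), with a median log2 fold of 0.20. Scaling by the median of ratios brought that median to 0.02 and the share of higher genes among those past the rule from 70.0 to 41.7%. Of 54 distal genes 25 were higher and 2 lower, with a median of 0.55, and in the other spots 42 were higher and 3 lower of 61, with a median of 0.80, so the distal genes were high in the section as a whole. Among spots at the common score 17 were higher and 2 lower of 55 with a median of 0.39, against 15.5 and 4.65% of all genes.

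Most of these 25 came from 3 lists. These were sodium chloride and magnesium transport with 5 genes higher, ENaC with water and potassium channels with 6, and transcription factors with 6. Cnnm2 stood at 33.1, 104, 22.9 and 44.5 CPM and was 3.13-fold higher (2.37 to 4.16) in the members against 1.24-fold higher in the other spots, and 1.83-fold higher (1.43 to 2.37) at the common score. Scnn1a was 2.97-fold higher (2.59 to 3.40) and 2.01-fold higher (1.78 to 2.27) at that score, where Aqp2 was 1.94-fold higher (1.82 to 2.06). Wnk4 was 2.30-fold higher (1.99 to 2.67) and Stk39 2.39-fold higher (1.97 to 2.89), and at that score 1.66-fold higher (1.46 to 1.88) and 1.60-fold higher (1.36 to 1.89). Wnk1 was 1.76-fold higher (1.66 to 1.86), and 1.11-fold higher (1.06 to 1.17) at the common score. Of 9 transcription factor genes 6 were higher, among them Emx1, 2.23-fold higher, and Tfap2a, 4.08-fold higher (1.70 to 10.5) from 16 against 9 UMIs. At that score Tfap2a, Esrrg and Gata2 were among those past the rule. Slc4a1 was 1.91-fold higher (1.67 to 2.19), and 2.02-fold higher (1.82 to 2.25) at that score.

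Sgk1 and S100g were the 2 lower genes. Sgk1 was 2.25-fold lower (1.99 to 2.55) in the members and 1.94-fold lower (1.79 to 2.10) at the common score, with the lowest, median and highest spots at 0, 227 and 1016 CPM against 83.2, 561 and 1217 CPM in the healthy section. The spots overlapped, and 15 healthy_LS-FMD members had no Sgk1 UMI against 0 healthy ones. S100g was 5.96-fold lower (1.90 to 30.1), from 3 against 41 UMIs. Of the S1 and S2 genes 9 of 10 were lower, with a median log2 fold of -1.17 in the members and -0.70 in the other spots. Of 5 thick ascending limb genes 2 were higher, among them Slc12a1, the loop's sodium, potassium and chloride cotransporter gene, 2.14-fold higher. These lists moved in the same spots as the distal genes, and their part in the distal differences was not tested.

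Gp2 was 3.86-fold higher (3.55 to 4.21) and Dnase1 3.33-fold higher (3.19 to 3.47), and at the common score 2.12-fold higher (1.96 to 2.30) and 2.10-fold higher (2.02 to 2.18). The clock gene Nr1d1 was 3.97-fold higher, with Ndrg4, Matn1, RT1-Bb, RT1-T24-4 and Dmrtc1c1 also among the 10 furthest up. Gh1, the gene of growth hormone, a pituitary product, had 0, 78, 11 and 0 UMIs in the members, so it was at least 59.6-fold higher in the healthy_LS-FMD than in the healthy members against a floor of 3 counts over the section's members. The other spots of the healthy_LS-FMD section held it at 52.9 CPM. Among those furthest down were Vnn1, the phosphate cotransporter gene Slc34a3, Spink1l, RT1-A2, Gpx3, Miox and the serine synthesis gene Phgdh, from 3.99-fold lower to 9.83-fold lower. Hrg was 14.1-fold lower (4.69 to 69.6) from 3 against 97 UMIs. Gpx3, the plasma glutathione peroxidase made by proximal tubule, stood at 9859.6 against 41717 CPM. Genes that lay apart from the other spots were Tubb2a, 2.24-fold higher against 1.27-fold higher, Kng1l1, Stra6 and Igkc above, and S100a6, 1.11-fold lower against 2.86-fold higher, Plvap, 2.02-fold lower against 1.28-fold higher, Serinc2, Rasgrp3 and Tle2 below.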

How the data were processed

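Spot by gene count matrices of 4 Visium kidney sections, 1 per group, were used as deposited: whole UMI counts for 32402 features, made by the authors with Space Ranger 2.0.1 (healthy) or 1.2.1 (the other 3 sections) per the file headers. The genome build and annotation are not given in the sources used here. Spots with at least 3000 UMIs were ranked as described above, UMIs were summed over the members of a section, and levels were expressed as CPM without the 3 selecting genes. A difference is the ratio of 2 summed levels with a 95% interval, computed from the exact binomial interval of one count within both. A gene with at least 20 UMIs over both was measured, and was called where the ratio was at least 1.5-fold and its interval left out 1. Beside the members of the distal gene lists, the genes named were the 20 with the highest least ratio to the other spots (at least 30 UMIs in each section) and, per comparison with at least 60 UMIs, the 10 highest, the 10 lowest and the 5 on either side lying furthest from the other spots. Provisional, ribosomal protein and haemoglobin genes were not named, and some genes that the rule named are not reported here. The members and lists were chosen with earlier results of these data known. Spot positions were not used. Python 3.11.15, numpy 2.4.6, scipy 1.17.1 and matplotlib 3.10.9 were used. The calls were tested on counts simulated with counting error alone, so that test covers no spread between spots or animals. Alternatives changed the ranking, the share and depth of spots, the scaling, the filter and the reference section.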

Additional observations from a re-analysis of the deposited data

How the results depend on the processing

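The median log2 fold of the distal lists was -0.48 for PAN against healthy, 0.42 for PAN_LS-FMD against PAN, 0.02 for PAN_LS-FMD against healthy and 0.55 for healthy_LS-FMD against healthy. Of the summary results, 72 stayed and 4 moved under the alternatives run. A count of genes past the rule pooled higher and lower genes and stayed where it changed by no more than 1.5-fold. A shift from higher to lower genes thus does not show in it. For healthy_LS-FMD against healthy, 1248 higher and 534 lower became 622 and 868 with median-of-ratios scaling, which counted as stayed. A median stayed where it lay between the median lower and the median upper bound of its genes. At the healthy score, the median for PAN_LS-FMD against PAN became 0.014. With the healthy_LS-FMD section as reference, the medians became -0.94 for PAN and -0.51 for PAN_LS-FMD. Both alternatives were chosen after the data were seen. With ranking by Calb1 alone, the median for healthy_LS-FMD against healthy became 0.86. Median-of-ratios scaling called 29 distal genes lower in PAN than in healthy, against 19. The 25 distal genes higher in healthy_LS-FMD became 39 with the top 10% of spots and 37 with Calb1 alone, and 17 with median-of-ratios scaling. The 6 distal genes lower in PAN_LS-FMD than in healthy became 0 with the top 10% of spots, 1 with Calb1 alone and 2 with Slc12a3 alone, and the 4 higher became 7 with Slc12a3 alone and 2 with median-of-ratios scaling or with means over spots. Of the named gene results, 883 stayed, 197 moved and 8 changed direction, and the cause was not tested. Changes of direction were counted only for genes past the rule in the comparison as first run. A gene below the rule could change sign and still count as stayed or moved. For PAN_LS-FMD against PAN, Fgfr2 and Kng1l1 became -0.70 and -0.82 with Calb1 alone and -0.052 and -0.056 at the healthy score. For PAN_LS-FMD against healthy, Klk1c3 became 0.53 with Slc12a3 alone, and Dmrtc1c1, Igkc and Spp1 became -0.017, -0.22 and -0.35 with the healthy_LS-FMD reference. Thinning spots to 3000 UMIs before the ranking kept between 73.1 and 84.3% of the members. Intervals cover counting error only, so spread between animals is unknown. No paired analysis was possible because each group had 1 section.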
